A study of Mus musculus with 12 samples.

Results

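The 8 genes described here are markers by which quiescent satellite cells, the Pax7+ stem cells of skeletal muscle, are recognised or sorted. They are *Cd34*, *Calcr*, *Chrdl2*, *Sdc3*, *Sdc4*, *Vcam1*, *Tenm4* and *Gas1*. They were chosen by gene name and make up 8 of the 55401 genes in the count table. All 8 were among the 25771 genes that passed the filter on low counts. RNA-seq libraries had been made from Pax7-ZsGreen+ cells sorted from the hind limb muscles of mice with or without a satellite cell deletion of *Cxcr4*, a chemokine receptor. Every mouse was *Cxcr4* FL/FL, carried the Pax7-ZsGreen reporter and, per the labels, was given tamoxifen at 80 mg/kg on 5 consecutive days. KO mice also carried Pax7-creERT2, which expresses an inducible Cre from the *Pax7* locus and removes exon 2 of *Cxcr4* in *Pax7*-expressing cells. WT mice lacked the Cre. The authors' methods add that, after these 5 days, mice of the conditional knockout experiments were kept on tamoxifen diet. Quiescent cells were freshly sorted and activated cells had been cultured overnight in growth medium. There were 4 WT quiescent, 4 KO quiescent, 2 WT activated and 2 KO activated libraries. The mice were adult. The labels do not say whether each library came from a separate mouse, so the p-values measure the spread between these libraries, which may be technical.

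Quiescent libraries held 12775593 to 23717013 counts and activated libraries 3172164 to 5427280. The ribosomal RNA gene CT010467.1 took 0.295% to 0.807% of the counts in quiescent libraries and 11.5% to 40.3% in activated ones. *Ddx3y*, a Y-linked gene, was at 289 to 570.4 CPM, the count scaled to library size, in the 8 quiescent libraries and at 0 to 2.28 CPM in the 4 activated ones. *Xist*, expressed from the inactive X chromosome, was at 1.20 to 7.17 CPM in quiescent and at 451 to 817 CPM in activated libraries, so that state, depth and the sex of the mice cannot be told apart. The targeted gene *Cxcr4* was at 61.2, 59.1, 89.6 and 112 CPM in WT quiescent libraries and at 17.6, 21.2, 12.5 and 17.1 CPM in KO quiescent ones, with a log2 fold change of -2.24 (SE 0.31, edgeR adjusted p = 0.00477). It was at 33.3 and 14.5 CPM in WT activated and at 5.39 and 13.7 CPM in KO activated libraries (log2 fold change -1.35, edgeR adjusted p = 0.381). The satellite cell genes *Pax7*, *Myf5*, *Myod1*, *Itga7* and *Cdh15* were detected in every library, with a summed level of 1766 to 4131 CPM in quiescent and 1544 to 2299 CPM in activated cells. Of these 5 genes, 3 were called lower in activated cells in WT (median log2 fold change -1.68) and 4 in KO (median -1.30). Of all genes tested, 16.5% were called lower in WT and 18.5% in KO cells. *Pax7* was at 303 to 482 CPM in WT quiescent, 181 to 290 CPM in KO quiescent and 71.2 to 129 CPM in activated libraries. Its WT and KO quiescent libraries did not overlap, as for 1.7% of all genes tested. None of the 5 genes was called in KO against WT in either state. Loss of *Cxcr4* and the Cre at the *Pax7* locus come together in KO mice and cannot be told apart. *Myod1*, a marker of commitment to the muscle lineage, was at 813 to 3097 CPM in quiescent and at 1260 to 1886 CPM in activated libraries, and the groups overlapped.

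Satellite cells lie under the basal lamina of the muscle fibre and stay out of the cell cycle until injury or culture activates them. Their surface proteins hold them in this niche and carry its signals. *Vcam1* binds integrins. *Cd34* is a sialomucin that is also made by endothelial cells and fibroadipogenic progenitors. *Calcr* is a G protein-coupled receptor for calcitonin that responds to type V collagen in the niche. Syndecans 3 and 4 carry heparan sulfate chains that bind growth factors. Teneurin 4, from *Tenm4*, is a large transmembrane adhesion protein, and *Gas1* is a lipid-anchored co-receptor for hedgehog ligands. *Chrdl2* is a chordin-like binder of bone morphogenetic proteins (BMPs) that is secreted, so it is a marker of the quiescent state and not a membrane protein.

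Overnight culture went with lower levels of most of these transcripts in both genotypes. In WT cells 7 of 8 were called lower in activated than in quiescent cells, where 16.5% of all genes tested were. A call needed an adjusted p under 0.05, a change of more than 1 on the log2 scale and a mean normalised count above 10. In KO cells 8 of 8 were lower, against 18.5% of all genes tested. Among the 12862 genes with an average log2 CPM over 1, which held all 8 members, the shares called lower were 23.2% in WT and 25.1% in KO. The members' median log2 fold change was -2.56 in WT and -2.89 in KO cells, beside -0.92 and -0.96 over all genes tested and -0.16 and -0.13 over the more expressed genes. *Calcr* and *Chrdl2* had the largest changes of the 8, and *Sdc3* did not pass in WT cells. In WT cells 7 of 8 and in KO cells 8 of 8 had both activated libraries below all 4 quiescent ones, as 38.4% and 36.1% of all genes did. Fewer cells of a type and less RNA per cell cannot be told apart in these bulk libraries.

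**Figure D1:**
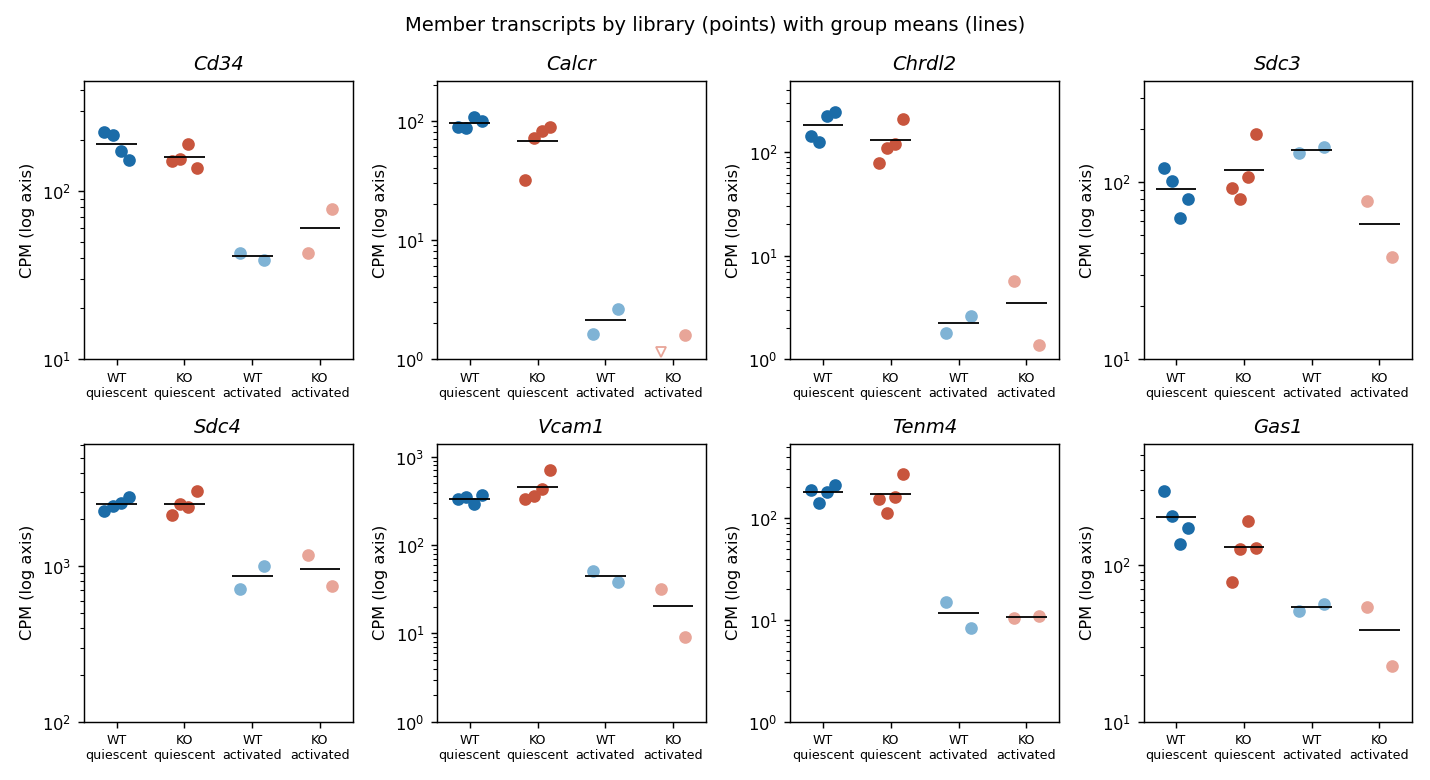
CPM of the 8 members on log axes in each of the 12 libraries (points), with the mean of each group (line). The open triangle at the foot of the *Calcr* panel stands for the KO activated library with 0 counts. Activated libraries lay below all quiescent libraries of their genotype for every member except *Sdc3* in WT cells, which lay above them.

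*Calcr* was among the 2 members whose transcript came close to the limit of detection after culture. WT quiescent libraries had 88.7, 86.0, 107 and 98.8 CPM and KO quiescent libraries 31.7, 71.4, 81.0 and 87.7 CPM. KO quiescent replicate 1 was the lowest of the 8. After culture the counts were 10 and 6 in WT and 0 and 7 in KO libraries, where the quiescent means of the same genotype would have given 583, 217, 264 and 298 counts at these depths. The library with 0 of 3589006 counts allows a level of up to 0.77 CPM (3 counts, counting error only). Activated and quiescent libraries did not overlap. The log2 fold change was -5.58 in WT (SE 0.58, edgeR adjusted p = 6.76e-07), a 48.0-fold lower level. In KO cells it was -6.33 (SE 0.63, edgeR adjusted p = 3.75e-07). The KO value was -5.41 without KO activated replicate 1 and -13.02 without KO activated replicate 2, which leaves the library with 0 counts, so its size was poorly set while the call held.

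*Chrdl2* showed the same drop to a few counts. It stood at 142, 125, 222 and 243 CPM in WT quiescent and at 78.0, 111, 120.1 and 209.9 CPM in KO quiescent libraries. KO quiescent replicate 4 lay inside the WT range and the other 3 KO libraries lay below all 4 WT ones. Activated libraries held 11 and 6 counts in WT and 22 and 6 counts in KO cells, where the quiescent means would have given 1120, 418, 505 and 568. The log2 fold change on culture was -6.45 in WT (SE 0.61, edgeR adjusted p = 2.48e-07), or 87.5-fold lower. In KO cells it was -5.23 (SE 0.55, edgeR adjusted p = 7.96e-07), with -6.56 without KO activated replicate 1 and -4.51 without KO activated replicate 2. The change differed between genotypes by 1.22 on the log2 scale, with a 95% interval of -0.36 to 2.80.

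*Tenm4* fell in both genotypes by values close to each other. Quiescent levels were 190.0, 139.8, 179 and 213 CPM in WT and 152, 112, 162 and 268 CPM in KO libraries, and the genotypes overlapped. Activated levels were 14.9 and 8.32 CPM in WT and 10.5 and 10.95 CPM in KO libraries, far below any quiescent library. Its log2 fold change was -3.91 in WT (SE 0.39, edgeR adjusted p = 5.32e-07) and -4.01 in KO cells (SE 0.39, edgeR adjusted p = 3.42e-07). The difference between these changes was -0.10, with a 95% interval of -1.10 to 0.89.

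*Vcam1* was lower after culture in each genotype, and its KO activated libraries were the lowest of all. It was at 332, 349.7, 294 and 365 CPM in WT quiescent libraries and at 329.6, 361, 434 and 700.1 CPM in KO quiescent ones, of which replicate 4 stood above the rest. After culture it was at 51.1 and 37.7 CPM in WT and at 31.6 and 9.13 CPM in KO libraries. The WT and KO activated libraries did not overlap. The log2 fold change on culture was -2.91 in WT cells (SE 0.42, edgeR adjusted p = 3.15e-05). In KO cells it was -4.49 (SE 0.47, edgeR adjusted p = 6.62e-07), with -5.65 without KO activated replicate 1 and -3.84 without KO activated replicate 2.

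*Cd34* was lower after culture by a smaller factor. It was at 225, 214, 173 and 152 CPM in WT quiescent and at 152, 155, 191 and 138 CPM in KO quiescent libraries. Activated libraries had 43.0 and 39.0 CPM in WT and 42.6 and 77.8 CPM in KO cells, and KO activated replicate 2 stood apart from the other 3. Its log2 fold change was -2.22 in WT (SE 0.30, edgeR adjusted p = 1.60e-05) and -1.40 in KO cells (SE 0.29, edgeR adjusted p = 8.78e-04). Without KO activated replicate 1 the KO value was -1.03 and did not pass (edgeR adjusted p = 0.0576).

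*Gas1* was the member with the widest spread between WT quiescent libraries, with more than a 2-fold difference between the highest and the lowest. WT quiescent libraries had 296, 206, 136 and 172 CPM, and KO quiescent libraries 77.5, 126, 189.8 and 128 CPM. After culture there were 50.5 and 56.5 CPM in WT and 54.2 and 22.6 CPM in KO libraries, all below the lowest quiescent library. On culture the log2 fold change was -1.92 in WT (SE 0.40, edgeR adjusted p = 0.00111) and -1.77 in KO cells (SE 0.40, edgeR adjusted p = 0.00197). The KO value was -2.54 without KO activated replicate 1 and, without KO activated replicate 2, -1.26 with no call (edgeR adjusted p = 0.066).

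The syndecans *Sdc4* and *Sdc3* are related proteins. On culture of WT cells their estimates had opposite signs, and that of *Sdc3* did not pass. The part of the promoters in these levels was not tested. The 120 bases before the start of each gene are shown to set these promoters side by side, from RefSeq on GRCm38.p6, at chr2:164443189-164443308 on the minus strand for *Sdc4* and chr4:130792417-130792536 on the plus strand for *Sdc3*. Neither window overlaps an exon of the GENCODE M21 annotation. The *Sdc3* window lies outside any annotated gene, while that of *Sdc4* lies in an intron of a longer gene model, which starts farther upstream than the RefSeq start. Capitals mark the GC box GGGCGG on either strand.
Sdc4: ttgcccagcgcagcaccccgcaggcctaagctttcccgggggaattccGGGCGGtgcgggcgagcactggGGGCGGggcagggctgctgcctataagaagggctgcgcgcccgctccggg
Sdc3: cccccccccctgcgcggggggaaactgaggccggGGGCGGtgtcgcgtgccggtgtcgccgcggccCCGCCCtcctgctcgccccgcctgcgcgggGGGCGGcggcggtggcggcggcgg
Within 250 bases of the start, *Sdc4* has 4 GC boxes and *Sdc3* has 3, and 32.7% of 32851 promoters have at least 1. Neither has an E-box (CANNTG), the motif that myogenic factors bind, which 66.2% of promoters hold in that window. They hold 19 and 32 CpG dinucleotides, where the median promoter holds 6. Of the 8 members, 6 had a promoter in that table, and *Calcr* and *Gas1* each had a GC box in 1 window of 250 bases.

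*Sdc4* was the most abundant of the 8 transcripts and was lower in activated cells. It was at 2252, 2422, 2568 and 2784 CPM in WT quiescent libraries and at 2140, 2512, 2395 and 3067 CPM in KO quiescent ones. In activated cells it was at 712 and 1010 CPM in WT and at 1181 and 751 CPM in KO libraries, with no overlap between states. On the log2 scale the change was -1.54 in WT (SE 0.29, edgeR adjusted p = 4.76e-04) and -1.39 in KO cells (SE 0.29, edgeR adjusted p = 0.00104). Without KO activated replicate 2 the KO value was -1.08 and did not pass (edgeR adjusted p = 0.0648).

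*Sdc3* was the member that was not called lower in WT cells. Its quiescent libraries had 119.7, 101, 62.5 and 80.2 CPM in WT and 92.7, 80.3, 107 and 186 CPM in KO. Activated libraries had 146 and 158 CPM in WT, above all 4 WT quiescent ones, and 77.8 and 37.9 CPM in KO, below all 4 KO quiescent ones. The KO libraries of 36.1% of all genes tested were likewise lower without overlap. In WT cells the log2 fold change of 0.74 did not pass (SE 0.34, 95% interval 0.03 to 1.44, edgeR adjusted p = 0.102). In KO cells it was -1.01 (SE 0.36, edgeR adjusted p = 0.038). That call lay at the fold threshold and was lost in 6 of 8 other settings, at -0.98 with DESeq2, with its size factors or with the compared groups alone, at -0.9993 with a replicate block, at -0.997 with CT010467.1 left out and at -0.57 without replicate 2 of both activated groups. It was also lost at -0.68 without KO quiescent replicate 4 and at -0.57 without KO activated replicate 2. The ratio of *Sdc4* to *Sdc3*, each as CPM per kilobase of exons, was 44.2, 56.3, 96.7 and 81.6 in WT quiescent and 54.3, 73.6, 52.8 and 38.7 in KO quiescent libraries. In WT activated libraries it was 11.5 and 15.1, below every other library, and in KO activated libraries 35.7 and 46.6.

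**Figure D2:**
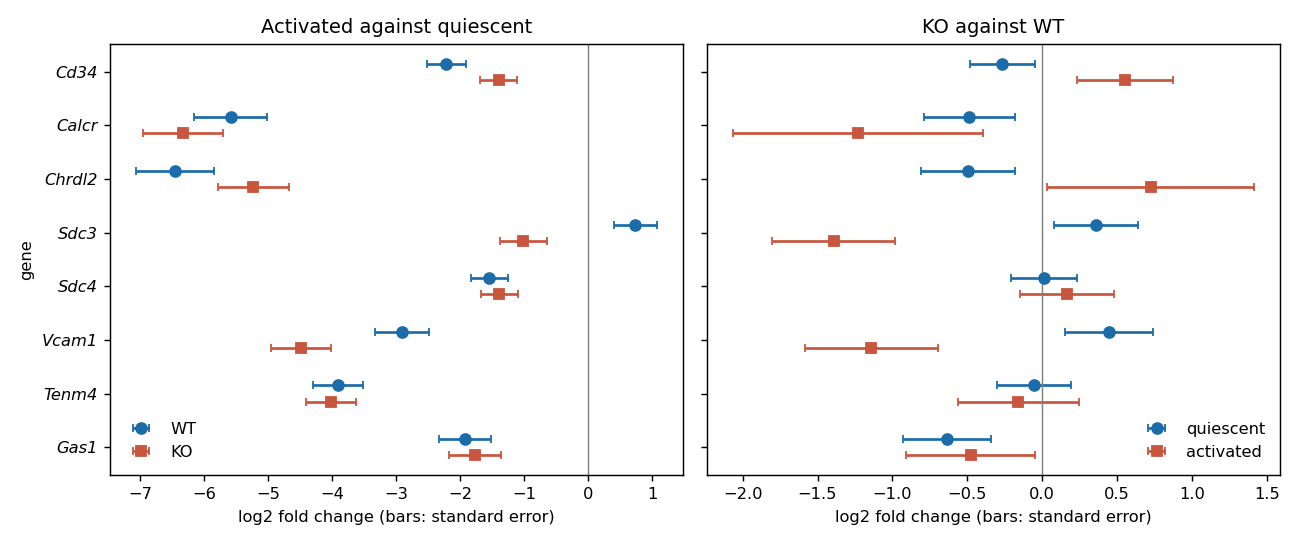
Log2 fold change of each member with its standard error (bars), for activated against quiescent cells in each genotype (left) and for KO against WT in each state (right). On the left *Sdc3* in WT (0.74) is the single estimate above 0, and on the right *Sdc3* (-1.39), *Calcr* (-1.23) and *Vcam1* (-1.14) lie lowest in activated cells.

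Loss of *Cxcr4* went with no called change of these transcripts in quiescent cells. None of the 8 passed in KO against WT, where 4 genes of all tested did (0.0155%, with 0.00776% lower). DESeq2 on all 12 libraries also called 0 of 8. The log2 fold changes ran from -0.64 for *Gas1* to 0.44 for *Vcam1*, with a median of -0.16 beside 0.02 over all genes. *Gas1* (SE 0.29, edgeR adjusted p = 1) had an unadjusted p under 0.05, as 1.74% of all genes did, and its WT and KO libraries overlapped. Without WT quiescent replicate 1 its log2 fold change was -0.40, closer to 0. For *Sdc4* the difference was 0.01 with a 95% interval of -0.45 to 0.48, and for *Cd34* -0.27 with an interval of -0.72 to 0.19. The intervals of *Calcr* (-1.12 to 0.15), *Chrdl2* (-1.15 to 0.16) and *Gas1* (-1.25 to -0.02) reached past a 2-fold lower level, and that of *Vcam1* (-0.17 to 1.06) past a 2-fold higher one. The WT and KO libraries of all 8 members overlapped, where 1.7% of all genes did not. *Pax7*, which is not a member, was among those, with every KO quiescent library below every WT one.

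In activated cells none of the 8 passed in KO against WT either, where 13 genes of all tested did (0.0504%), 8 higher and 5 lower. The split was 4 and 4 with DESeq2's size factors, and it turned with DESeq2 (58 higher, 87 lower) and without the filter on low counts (127 higher, 205 lower). For *Sdc3* the log2 fold change was -1.39 (SE 0.41, edgeR adjusted p = 0.265), with -1.02 without KO activated replicate 2 and -2.02 without KO activated replicate 1. For *Vcam1* it was -1.14 (SE 0.44, edgeR adjusted p = 0.467), with -0.55 and -2.30 without the same libraries. These 2 had an unadjusted p under 0.05, as 8.37% of all genes did. Without the filter on low counts *Sdc3* passed (-1.39, edgeR adjusted p = 0.0146), and with DESeq2 it did not (adjusted p = 0.0582). *Sdc3*, *Vcam1* and *Calcr* were lower in both KO libraries than in both WT libraries, as 9.5% of all genes were. *Calcr* differed by -1.23 (SE 0.83) on 16 counts in WT and 7 in KO libraries. Intervals were wide, with -0.49 to 0.82 for *Sdc4* and -0.71 to 2.16 for *Chrdl2*.

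The KO effect in activated cells less that in quiescent cells, an interaction term, passed for none of the 8, and edgeR called 0 of 25771 genes (0%), with 1699 (6.59%) at an unadjusted p under 0.05. DESeq2 called 48. The term was -1.75 for *Sdc3* (SE 0.49, edgeR adjusted p = 0.398), -1.59 for *Vcam1* (SE 0.53, edgeR adjusted p = 0.576) and 0.82 for *Cd34* (SE 0.39, edgeR adjusted p = 0.751), each with an unadjusted p under 0.05. For *Sdc3* the estimate on culture was above 0 in WT and below 0 in KO cells. For *Vcam1* both were below 0, and the KO one was farther from it. Without the filter on low counts *Sdc3* passed (-1.77, edgeR adjusted p = 0.0129). *Vcam1* passed without KO activated replicate 1 (-2.76, edgeR adjusted p = 0.0477) and was at -0.997 without KO activated replicate 2. *Gas1* (0.16, 95% interval -0.93 to 1.25) and *Sdc4* (0.15, interval -0.65 to 0.96) had terms near 0.

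Per length of transcript, *Sdc4* stood far above the other members in every group. In WT quiescent cells *Sdc4* was at 984 ± 88.6 CPM per kilobase of exons (SD, n = 4), which was 81.0% of the summed level of the 8. *Gas1* followed at 68.4 ± 23.1, *Chrdl2* at 49.99 ± 16.0 and *Vcam1* at 37.8 ± 3.46, and these 3 overlapped their neighbours in the order. Below them were *Cd34* at 26.2 ± 4.74 and *Calcr* at 24.3 ± 2.49, which overlapped, then *Sdc3* at 15.2 ± 4.16 and *Tenm4* at 8.58 ± 1.45, which did not. In KO quiescent cells *Sdc4* was again first, at 993 ± 154, followed by *Vcam1* at 51.4 ± 19.0, and *Tenm4* was last at 8.26 ± 3.17, with each gene below *Sdc4* overlapping the next.

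The order was another one in activated cells. In WT activated cells *Sdc4* was at 338 ± 82.7 CPM per kilobase (SD, n = 2), *Sdc3* was next at 25.4 ± 1.37, and *Gas1* was at 18.1 ± 1.43. *Cd34* (5.62 ± 0.39) and *Vcam1* (5.01 ± 1.07) overlapped. *Chrdl2*, *Tenm4* and *Calcr* were at 0.60, 0.55 and 0.54 CPM per kilobase and overlapped. In KO activated cells *Sdc4* was at 379 ± 119, or 91.6% of the sum, and *Gas1* (13.0 ± 7.55), *Sdc3* (9.66 ± 4.72) and *Cd34* (8.26 ± 3.41) overlapped their neighbours. *Vcam1* was at 2.30 ± 1.79.

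**Figure D3:**
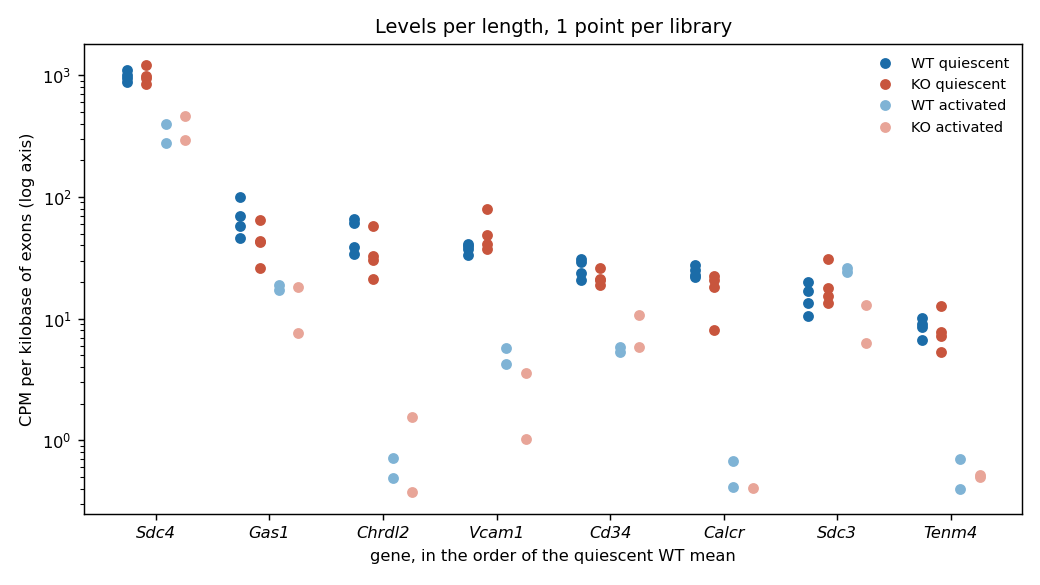
CPM per kilobase of exons on a log axis for each member, 1 point per library, with genes in the order of their WT quiescent mean. The KO activated library with 0 counts of *Calcr* is not drawn. *Sdc4* lies above every other member in all 12 libraries, and *Chrdl2*, *Calcr* and *Tenm4* lie near or below 1 in most activated ones.

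Markers of several other cell types differed between quiescent and activated libraries. A list of 8 fibroadipogenic genes, which include *Pdgfra* and *Dcn*, summed to 296 to 2981 CPM in quiescent and to 258 to 747 CPM in activated libraries. These ranges overlapped, and 2 of 8 genes were called lower in WT (median log2 fold change -0.21). In KO 2 were called lower and 1 higher (median 0.43). The largest of the list in WT quiescent cells, *Col3a1* and *Col1a1*, averaged 614 and 465 CPM there, while *Pdgfra* averaged 7.91 CPM. A list of 8 endothelial genes, which include *Pecam1* and *Cdh5*, summed to 287 to 1499 CPM in quiescent and to 123 to 633 CPM in activated libraries, which also overlapped, with 3 of 8 called lower in WT and 2 of 8 in KO. No gene of either list was at 0 in all libraries of a group. The mural list (8 genes, which include *Rgs5*, *Pdgfrb* and *Notch3*) went from 1490 to 2762 CPM down to 223 to 424 CPM, with 5 of 8 called lower in WT and 6 of 8 in KO. *Notch3*, also counted below among the surface proteins of satellite cells, averaged 895 CPM in WT quiescent and 18.2 CPM in WT activated libraries. For *Rgs5* these means were 689 and 210 CPM. The haematopoietic list went from 61.7 to 256 CPM down to 21.0 to 34.2 CPM, with *Tyrobp* and *Cd52* at 0 in both WT activated libraries and 4 of 8 called lower in WT and 7 of 8 in KO. The Schwann cell list went from 262 to 629 CPM down to 60.0 to 211 CPM, with *Foxd3* at 0 throughout and, of 6 genes tested, 5 called lower in WT and 4 in KO. All 8 muscle fibre genes were called higher in both genotypes, and their sum rose from 282 to 1013 CPM to 7274 to 17462 CPM. The part of these cells in the lower *Cd34* and *Vcam1* was not tested.

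Among KO quiescent libraries, the sum of the fibroadipogenic list spanned a wider range than any member did. The sum was 1366, 1588, 1068 and 861 CPM in WT and 296, 497, 2981 and 1309 CPM in KO quiescent libraries. In KO quiescent libraries *Col1a1* ran from 58.6 to 1507 CPM and *Col3a1* from 44.2 to 1249.5 CPM. *Pdgfra*, of the same list, ran from 3.07 to 9.055 CPM there. KO quiescent replicate 3, with the highest sum, also had the highest KO level of *Cd34* (191 CPM) and *Gas1* (189.8 CPM). KO quiescent replicate 1, with the lowest sum, had the lowest *Gas1* (77.5 CPM) and *Calcr* (31.7 CPM). That library was also the lowest of KO quiescent for *Pax7* (181 CPM), *Cdh15* (124 CPM) and *Chrdl2* (78.0 CPM). Its endothelial sum was the highest, at 1499 CPM. The lowest KO quiescent *Cd34* (138 CPM) was in replicate 4, whose fibroadipogenic sum was 1309 CPM. In WT quiescent cells *Gas1* (296 CPM) and *Cd34* (225 CPM) were highest in replicate 1, and the fibroadipogenic sum in replicate 2. The part of fibroadipogenic cells in the level of *Gas1* was not tested.

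**Figure D4:**
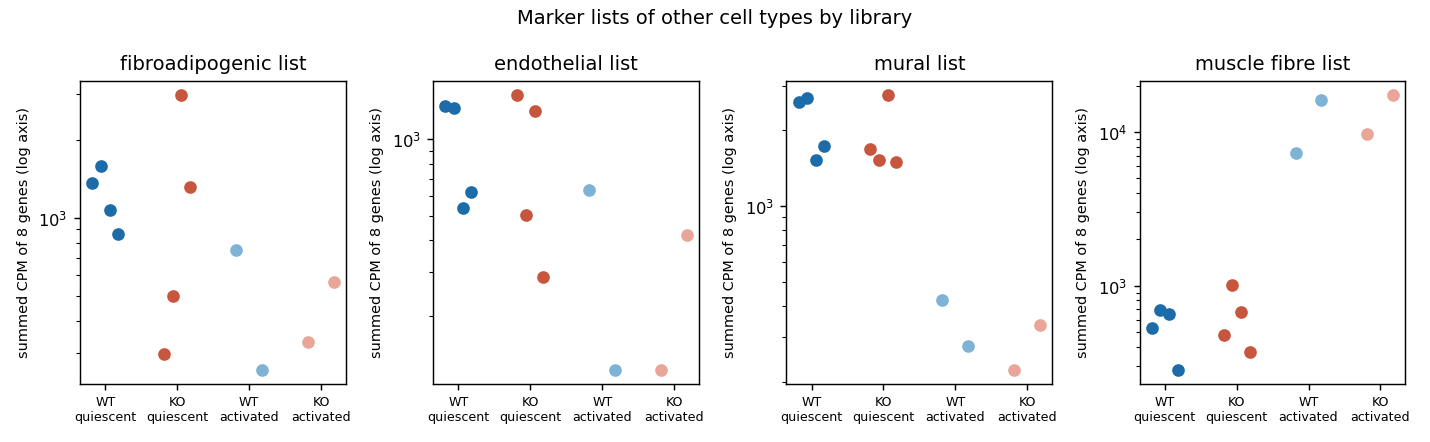
Summed CPM of 8 marker genes of fibroadipogenic progenitors, endothelial cells, mural cells and muscle fibres on log axes, 1 point per library. The fibre list is at 7274 to 17462 CPM in activated libraries and at no more than 1013 CPM in quiescent ones, and the mural list is lower in all 4 activated libraries. The mural list includes *Notch3*, which is also counted among the surface proteins of satellite cells.

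Ligands, partners and relatives of the members were examined as a list of 54 genes. None passed in KO against WT in either state or in the interaction. In activated against quiescent WT cells 19 were lower and 2 higher, with a median log2 fold change of -1.01, and in KO cells 23 were lower and 3 higher, with a median of -0.78. The all-gene medians were -0.92 and -0.96. The share called lower among all genes was 16.5% and 18.5%, and the share called higher 9.65% and 11.1%. Over the 12862 genes with an average log2 CPM over 1, the medians were -0.16 and -0.13, and 23.2% and 25.1% were called lower. Whether each listed gene is among them is not given here.

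The type V collagens, ligands of *Calcr*, were lower in activated cells for 3 of 3 genes in both genotypes. *Col5a1* had a log2 fold change of -2.48 in WT and -2.65 in KO cells, *Col5a2* of -1.74 and -1.63, and *Col5a3* of -2.47 and -3.27. Of the 3 receptor activity modifying proteins, which bind *Calcr* and set its ligand preference, *Ramp1* rose in KO cells by 3.76 (SE 0.47), from 1.56 to 21.3 CPM on average. In WT cells its estimate of 1.13 did not pass (edgeR adjusted p = 0.0957). Among hedgehog pathway genes, which *Gas1* serves as a co-receptor, 4 of 8 were lower in each genotype. On the log2 scale the co-receptor *Boc* changed by -3.27 in WT and -3.31 in KO cells, and the transcription factor *Gli2* by -5.18 and -4.81. The BMP ligands, which chordin-like proteins bind, were lower for 3 of 3 genes. *Bmp7* had 0 counts in both WT activated libraries against 304 in WT quiescent ones, which makes it at least 11.99-fold lower (3 counts over the group). In KO cells it fell by 2.30. The antagonist *Chrd* fell by 2.63 in WT and by 1.87 in KO cells, and *Nog* rose by 3.97 in KO cells on 24 counts in quiescent and 41 in activated libraries.

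Among relatives of *Tenm4*, *Tenm2* changed by -3.60 in WT and -3.46 in KO cells on the log2 scale. *Tenm1* had 0 counts in all activated libraries, which makes it at least 3.51-fold lower in KO cells, where it passed, and at least 2.36-fold lower in WT cells, where it did not (edgeR adjusted p = 0.059). *Adgrl3*, a receptor for teneurins, fell by 3.71 in KO cells, on 858 counts in quiescent and 7 in activated libraries. Its WT estimate of -1.07 did not pass. Among heparan sulfate proteins, *Sulf1*, which removes sulfate groups from the chains that syndecans carry, changed by -4.76 in WT and -3.97 in KO cells. *Gpc1*, another heparan sulfate proteoglycan, rose by 1.77 in WT (SE 0.31) and by 1.09 in KO cells (SE 0.31). The remaining syndecans were not called in WT cells, with -0.11 for *Sdc1* and -0.86 for *Sdc2*, short of the fold threshold. In KO cells *Sdc2* passed at -1.03 and *Sdc1*, at -0.49, did not. *Podxl*, a sialomucin related to *Cd34*, rose by 1.33 in WT cells (SE 0.48, edgeR adjusted p = 0.0414), and its KO estimate of 0.56 did not pass.

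A list of 29 other surface proteins of satellite cells was set beside the members. In quiescent cells 1 of the 29, *Cxcr4* itself, was lower in KO than in WT, and in activated cells and in the interaction none passed. Between the states, 14 were lower and 2 higher in activated WT cells, with a median log2 fold change of -1.08 beside -0.92 over all genes, of which 16.5% were called lower and 9.65% higher. In KO cells 17 were lower and 2 higher, with a median of -1.33 beside -0.96 over all genes, of which 18.5% were called lower and 11.1% higher. Over the 12862 genes with an average log2 CPM over 1, the medians were -0.16 in WT and -0.13 in KO cells. Of those genes 23.2% and 25.1% were called lower. *Notch3*, a receptor also expressed by mural cells, changed by -5.57 in WT and -6.12 in KO cells. *Fgfr4*, a fibroblast growth factor receptor, changed by -5.50 and -6.54, and *Notch1* by -2.65 and -3.73. *Megf10*, a regulator of satellite cell proliferation, changed by -2.59 and -3.21, and *Bcam*, a laminin receptor, by -2.99 and -3.12. *Cav1*, of caveolae, fell by 2.55 in WT cells, and in KO cells it averaged 720 CPM in quiescent and 131 CPM in activated libraries. *Lgr6* fell by 3.62 in KO cells, on 229 counts in quiescent and 2 in activated libraries. In WT cells it averaged 2.83 CPM in quiescent and 1.25 CPM in activated libraries. *Met*, the receptor for hepatocyte growth factor, rose by 2.49 in WT (SE 0.32) and by 2.44 in KO cells (SE 0.32). *Cdh2* rose by 1.28 in WT cells, and *Lgr5* rose by 1.46 in KO cells.

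**Figure D5:**
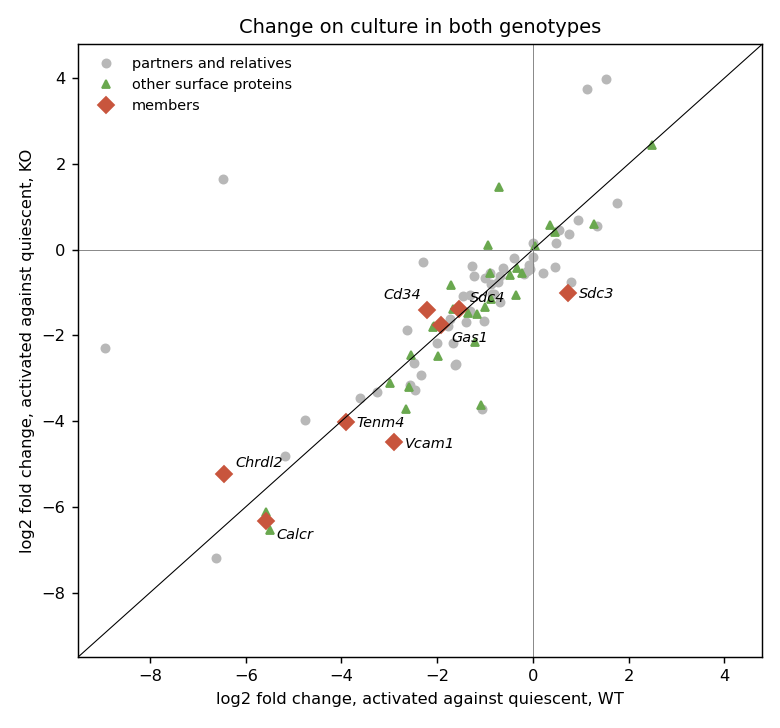
Log2 fold change of activated against quiescent cells in WT (x axis) and KO (y axis) for the 8 members, the 29 other surface proteins and the 54 partners and relatives, with the line of equal change. Points at the far left and bottom among the partners are genes with 0 counts in activated libraries (*Bmp7*, *Grem1* and *Tenm1*), whose fitted values are not bounds. *Sdc3* is the member to the right of 0 on the WT axis, and *Met* lies in the upper right.

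On the genome (GRCm38, GENCODE M21) *Tenm4* at chr7:96171246-96911093 and *Chrdl2* at chr7:100006172-100034728 share a chromosome, and the other 6 are each on their own. *Vcam1* is at chr3:116109949-116129688, *Cd34* at chr1:194938819-194961279, *Calcr* at chr6:3685680-3764714, *Sdc3* at chr4:130792537-130826319, *Sdc4* at chr2:164424247-164443887 and the single-exon *Gas1* at chr13:60174405-60177365. Exons of *Cd34*, *Gas1*, *Sdc3*, *Tenm4* and *Vcam1* overlap genes annotated on the opposite strand, and whether the counting used strand was not given in the sources used here. Those genes had few counts. *Gm48488*, which shares 589 exon bases with *Gas1*, had 134 counts in the WT quiescent libraries against 15252 for *Gas1*. *Gm16897*, which shares 148 with *Cd34*, had 202 against 14439, and *Gm43109*, which shares 61 with *Vcam1*, had 104 against 25557. The introns of *Calcr* hold *Mir653* and *Mir489*, and those of *Tenm4* hold *Mir708* and *Mir6394*, on the same strand.

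The 2 genes nearest to each member in pattern were found among 12854 others by the root mean square difference of log2 CPM, each gene centred on its mean over the 12 libraries. *Sdc4* was followed most closely by *Smc1a* (0.14) and *Herc1* (0.17), *Cd34* by *Septin2* (0.18) and *Filip1l* (0.20), and *Tenm4* by *Pfkp* (0.20) and *Prox1* (0.22). For *Vcam1* they were *Crip1* (0.33) and *Dennd2a* (0.37), and for *Gas1* *Slc22a3* (0.33) and *Pax7* (0.34). For *Sdc3* they were the hedgehog pathway factor *Gli3* (0.32) and *Stambpl1* (0.34). The nearest genes to *Chrdl2*, *Hmcn2* (0.56) and *Gm13070* (0.57), and to *Calcr*, *Nppc* (0.65) and *Thsd4* (0.65), lay farther off, and these 2 members also varied most over the libraries (2.80 and 3.12 about their own means). *Sdc3* varied least, at 0.60, then *Sdc4* at 0.73, *Cd34* at 0.91 and *Gas1* at 1.02. The distances of members that vary by different amounts are therefore not on one scale.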

How the data were processed

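Polyadenylated RNA of sorted cells was sequenced with NEBNext Ultra libraries. The authors trimmed reads with Trim Galore 0.6.0, mapped them with STAR 2.7.2a to GRCm38.p6 (mm10) and counted them per GENCODE gene with Rsubread. Their treatment of strand and of reads with several matches was not given in the sources used here. The authors deposited counts of reads per gene without normalization. The deposited FPKM are 1 value per group and were compared with the levels per length.

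From the counts, genes were kept by filterByExpr of edgeR 4.0.16 (R 4.3.3), libraries were scaled by TMM, and 1 model with 4 group means was fitted to all 12 libraries. Contrasts were tested by the quasi-likelihood F test with Benjamini-Hochberg adjustment over 25771 genes. A gene was called at an adjusted p under 0.05, more than 1 log2 unit of change and a mean normalised count above 10. The SE is the fold change over the square root of F. TMM factors enter all CPM, and a prior count of 2 was added before taking log2. Exon lengths came from GENCODE M21, in which 55141 of 55401 gene identifiers matched. Differences between genes per length rest on these lengths. The script was tested on simulated data.

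The members and lists were chosen with earlier results of these data known. The text names all 8 members, *Cxcr4*, the satellite list, at most 6 rises and 6 falls among called genes per list and comparison, the 2 genes nearest to each member in pattern, and genes that overlap a member. The collagens, syndecans, *Ramp1*, and the values of a named gene in the other genotype, were named after their values were seen. Alternatives were DESeq2's size factors, DESeq2 1.42.0, no filter on low counts, the adjusted p alone, the compared groups alone, a replicate block, CT010467.1 left out, and each library left out. Leaving out replicate 2 of both activated groups, the libraries richest in ribosomal RNA, was added after seeing the data. No libraries agreed within sampling noise. Intervals of fold changes come from the quasi-likelihood fit and include the spread between libraries, while limits from 3 counts cover counting error only.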

Additional observations from a re-analysis of the deposited data

Results flagged for a closer look

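The estimates for *Sdc3* in activated against quiescent cells had opposite signs in the 2 genotypes. Both WT activated libraries (146 and 158 CPM) lay above all 4 WT quiescent ones and both KO activated libraries (77.8 and 37.9 CPM) below all 4 KO quiescent ones. This lack of overlap is what flagged the gene. Of all genes tested, 36.1% had both KO activated libraries below all 4 KO quiescent ones. The share of all genes with opposite directions in the 2 genotypes is not given here. The log2 fold changes differed by -1.75 (SE 0.49), which the interaction test did not pass (edgeR adjusted p = 0.398). The WT change of 0.74 did not pass either (edgeR adjusted p = 0.102), and the KO call at -1.01 was lost in 6 of 8 other settings.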

How the results depend on the processing

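Of 40 members' log2 fold changes (8 genes in 5 comparisons), the 7 other settings and the replicate 2 removal left direction and call as they were in 288 of 302 values, and leaving out 1 library in 262 of 288. The compared groups alone gave no value for *Calcr* and *Chrdl2* in activated KO against WT, since both genes were filtered out. No setting could tell depth, ribosomal RNA content or sex apart from state, and each activated group had 2 libraries. Without the filter on low counts, *Sdc3* was called lower in KO (count 1 of 8 in activated cells and 1 of 8 in the interaction), 1 other surface protein was called in activated cells and 1 partner in the interaction. Over all genes, that setting called 332 of 46597 in activated cells and 170 in the interaction. DESeq2 called 145 and 48 of 46597, where the main fit called 13 and 0 of 25771. DESeq2 on all 12 libraries also called 1 other surface protein in activated cells, as did the fit without replicate 2 of both activated groups. That fit holds 1 library in each activated group, and leaving out 1 activated library leaves 1 in its group. The lone library is then assumed to vary like the other groups. Calls over all genes also changed without 1 library and without replicate 2 of both activated groups. The counts of listed genes called there thus have no fixed all-gene share beside them. The fit without both left 5 of 8 members called on culture in KO cells. Leaving out 1 library gave 5 to 8 members on culture in KO cells (5 without KO activated replicate 2), 0 to 1 member in the interaction, 0 to 1 other surface protein and 0 to 2 partners in KO against WT in activated cells (the highest of both lists without WT activated replicate 2).

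Directions turned for these values, none of which was called. *Sdc4* in quiescent cells was -0.0002617 with CT010467.1 left out, and without replicate 2 of both activated groups *Cd34* was -0.039 and *Gas1* 0.075 in KO against WT activated cells. Leaving out 1 library gave ranges across 0 in quiescent KO against WT for *Sdc4* (-0.092 to 0.084) and *Tenm4* (-0.34 to 0.11), in activated KO against WT for *Cd34* (-0.0017117 to 0.91), *Chrdl2* (-0.62 to 1.38), *Sdc4* (-0.22 to 0.40) and *Tenm4* (-0.55 to 0.27), and in the interaction for *Calcr* (-7.50 to 0.15), *Chrdl2* (-0.13 to 1.88), *Sdc4* (-0.24 to 0.39), *Tenm4* (-0.49 to 0.33) and *Gas1* (-0.64 to 0.60). The causes were not tested.

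With the replicate number as a block, the *Tenm4* interaction was 0.016 and the KO change of *Sdc3* was -0.9993 with no call. All-gene calls went from 4 to 5 in quiescent and from 13 to 23 in activated KO against WT and from 0 to 6 in the interaction. Same-numbered WT and KO libraries correlated in their deviations from the group means at 0.24, 0.16, -0.27 and 0.59 in quiescent cells. In activated cells the value was -0.07, and 1 of the 4 quiescent WT libraries was closest to its own number. In order of number, quiescent libraries held 17532019, 12775593, 23058947 and 22785815 counts in WT. Those of KO held 17238391, 13075208, 22897189 and 23717013 counts. With so few libraries, the correlations cannot decide whether the numbers pair the samples. All-gene calls in activated KO against WT were 8 of 25771 with DESeq2's size factors and 332 of 46597 without the filter. With DESeq2 they were 145 of 46597, and in the compared groups alone 3 of 12283. In quiescent cells they were 47 without the filter, and in the interaction 170 without it, 48 with DESeq2 and 1 with CT010467.1 left out. The deposited FPKM lay within 1 SD of the level per kilobase for 32 of 32 group means, at 0.96 to 1.03 times it.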
